A study of Mus musculus with 32 samples.

Results

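The core circadian clock of mammals is a transcriptional loop, and its open chromatin was examined here at 6 gene loci in the 2 non-parenchymal cell types of the mouse liver that the study isolated: Kupffer cells, the resident macrophages, and endothelial cells, which line the liver's vessels. The 6 loci are Arntl and Clock, whose products activate transcription, Per1, Per2 and Cry1, whose products repress them, and the output gene Dbp. A peak was assigned to a locus when its centre lay in a window around the gene, given below on the mouse build mm9. This gave 224 peaks of the 229137 in the 2 deposited lists: 127 of 137684 Kupffer peaks and 97 of 91453 endothelial peaks. The choice used positions alone and no measured level.

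ATAC-seq reads open chromatin through a transposase that cuts and tags accessible DNA, and the labels list 32 such libraries, 16 from Kupffer cells and 16 from endothelial cells. Each cell type was taken at zeitgeber times 10 and 22 (hours after lights on) from male C57BL/6J mice on normal chow. The mice were either REV-ERB a/b double knockouts, with both REV-ERB genes removed in hepatocytes of the adult according to the series' design, or wild type (WT), with 4 replicates for each combination of cell type, genotype and time. Sources used here give neither the alleles nor the method of deletion nor the ages. The deletion is thus in another cell type than those profiled. The authors deposited 1 list for each cell type, with positions only and no library, genotype or time named, so genotype and time were not analysed here, no value below has a replicate, and read depth is unknown. Nor could the labelled cell types be checked against marker genes, for the same reason.

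BMAL1, the product of Arntl, and CLOCK bind DNA as a dimer at E-boxes, of which CACGTG is the canonical form, and drive Per, Cry, Dbp and the REV-ERB genes. PER and CRY proteins then inhibit that dimer, and the REV-ERBs repress Arntl through sites built on AGGTCA, where the ROR activators also bind. DBP activates genes through D-boxes, among them Per1. In liver this loop sets the daily rhythm of a large part of metabolism, and macrophages and endothelial cells carry clocks of their own.

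The promoter letters of these genes show which elements of the loop lie at their starts. Promoters of 300 bases (250 before and 50 from the gene start) from RefSeq on GRCm38.p6 were found for 5 of the 6 genes, 9 promoters in all, with Per2 not among them. Those positions are on another build than the peaks, so no promoter was placed on a peak. The stretches of Per1 and Cry1 are shown because they hold the E-box, with a D-box as well in Per1. The longer Arntl stretch is shown for its CCAAT boxes and holds none of the loop's elements searched for. The short Arntl site is shown for its REV-ERB core site. Per1 is shown from chr11:69098699-69098948 on the plus strand, with CACGTG and the D-box TTATGCAA in capitals. An AGGTCA on the other strand, 137 bases before the gene start, is left in small letters. Cry1 is shown from chr10:85185055-85185304 on the minus strand, with CACGTG in capitals. Arntl is shown from chr7:113207215-113207464 on the plus strand, with CCAAT boxes in capitals, all of which read ATTGG on this strand. A site of 30 bases within the Arntl gene, chr7:113207530-113207559 from its second promoter, has AGGTCA in capitals.
Per1 promoter: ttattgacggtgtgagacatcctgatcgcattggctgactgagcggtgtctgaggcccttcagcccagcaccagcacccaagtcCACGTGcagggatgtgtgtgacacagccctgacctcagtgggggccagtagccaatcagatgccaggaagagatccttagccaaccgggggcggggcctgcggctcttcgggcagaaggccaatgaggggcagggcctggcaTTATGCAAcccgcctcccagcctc
Cry1 promoter: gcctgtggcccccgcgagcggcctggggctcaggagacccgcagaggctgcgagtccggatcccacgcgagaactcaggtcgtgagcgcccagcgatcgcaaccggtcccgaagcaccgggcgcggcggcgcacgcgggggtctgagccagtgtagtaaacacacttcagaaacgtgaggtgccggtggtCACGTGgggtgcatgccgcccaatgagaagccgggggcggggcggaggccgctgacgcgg
Arntl promoter: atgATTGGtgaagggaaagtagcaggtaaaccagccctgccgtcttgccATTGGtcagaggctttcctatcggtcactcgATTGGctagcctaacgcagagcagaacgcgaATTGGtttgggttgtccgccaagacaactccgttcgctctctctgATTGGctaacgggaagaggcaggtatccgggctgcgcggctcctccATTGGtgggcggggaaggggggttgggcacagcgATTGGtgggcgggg
Arntl site: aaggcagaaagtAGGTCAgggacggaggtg

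In Per1 the CACGTG began 166 bases before the gene start and the D-box 24 bases before it. In Cry1 the CACGTG began 60 bases before the start, and the variant CACGTT, on the other strand, 79 bases before it. These were the promoters with CACGTG among the members, 2 of 9, against 2349 of 32851 or 7.15% of all promoters in the table. Of 16 other clock genes listed, 12 had a promoter there, and 3 of those, Bhlhe41, Ciart and Tef, held CACGTG (25% of genes, against 8.09% of all genes). Counted by gene in the same way, 2 of the 5 members with a promoter held CACGTG (40%).
Searching both strands, a D-box (TTATGTAA or TTATGCAA) was found in 1 of 9 member promoters and in 1.66% of all promoters. AGGTCA was found in 3 of 9, those of Per1, Clock and Arntl, against 16.3% of all promoters. In Arntl it lay 31 bases after the first base of the gene and was not among the bases before it. CCAAT was found in 7 of 9 member promoters and in 9 of 16 promoters of the other clock genes, against 37.4% of all promoters. The first Arntl promoter held 8 CCAAT boxes and the second, which overlaps it, 7. The cyclic AMP response element TGACGTCA was in none of the 9 (1.79% of all promoters), and GGGCGG was in 8 of them and in 14 of 16 promoters of the other clock genes, against 35.7% of all promoters. A match is a run of letters and does not show that a factor binds.

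The windows differed in length and in what surrounds the gene. Arntl was taken as chromosome 7 from 120.31 to 120.50 Mb (190 kb), Clock as chromosome 5 from 76.60 to 76.78 Mb (180 kb), Per1 as chromosome 11 from 68.88 to 68.95 Mb (70 kb), Per2 as chromosome 1 from 93.27 to 93.40 Mb (130 kb), Cry1 as chromosome 10 from 84.55 to 84.69 Mb (140 kb) and Dbp as chromosome 7 from 52.93 to 53.00 Mb (70 kb). By gene order on GRCm38, the nearest protein-coding neighbours are Rassf10 and Btbd10 for Arntl, Tmem165 and Pdcl2 for Clock, Vamp2 and Hes7 for Per1, Hes6 and Traf3ip1 for Per2, Mterf2 and Btbd11 for Cry1, and Car11 and Rpl18 for Dbp, which Sphk2 overlaps. No mm9 annotation was used, so a peak below belongs to a locus and not to a named promoter, exon or intron, and some peaks may belong to neighbours.

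Both cell types had called peaks at each of the 6 loci, and about as many Kupffer peaks were shared as not. A peak was called shared when 1 bp or more of it lay under a peak of the other cell type. Of the 127 Kupffer peaks, 61 or 48.0% were shared (95% exact binomial interval 39.1% to 57.1%), against 39.1% of the whole Kupffer list. Of the 97 endothelial peaks, 60 or 61.9% were shared (51.4% to 71.5%), against 58.3% of the whole endothelial list. In flanks of the same length on either side of each window, 49 of 140 Kupffer peaks (35.0%, 27.1% to 43.5%) were shared. Of the endothelial peaks in the flanks, 48 of 93 (51.6%, 41.0% to 62.1%) were shared. The remaining 66 Kupffer-only peaks made up 52.0% of the Kupffer peaks, against 60.9% of the whole list, and the 37 endothelial-only peaks made up 38.1%, against 41.7%. Joined where they overlapped, the peaks formed 163 distinct sites, of which 60 or 36.8% were in both lists, 66 in Kupffer cells alone and 37 in endothelial cells alone. Over the whole lists 30.1% of sites were in both. There were 1.31 Kupffer peaks per endothelial peak at the loci, against 1.51 over the whole lists. With the Kupffer list cut to its widest peaks, the ratio at the loci was 0.93. That cut makes the whole lists about equal (91515 Kupffer and 91453 endothelial peaks), so 0.93 does not compare with 1.51. These intervals cover counting error only and treat peaks as independent, and no test against the rest of the genome was made. The shared part rested in part on Per1: without that locus it was 42.4% of Kupffer and 53.2% of endothelial peaks, the second of which is below the whole list.

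**Figure D1:**
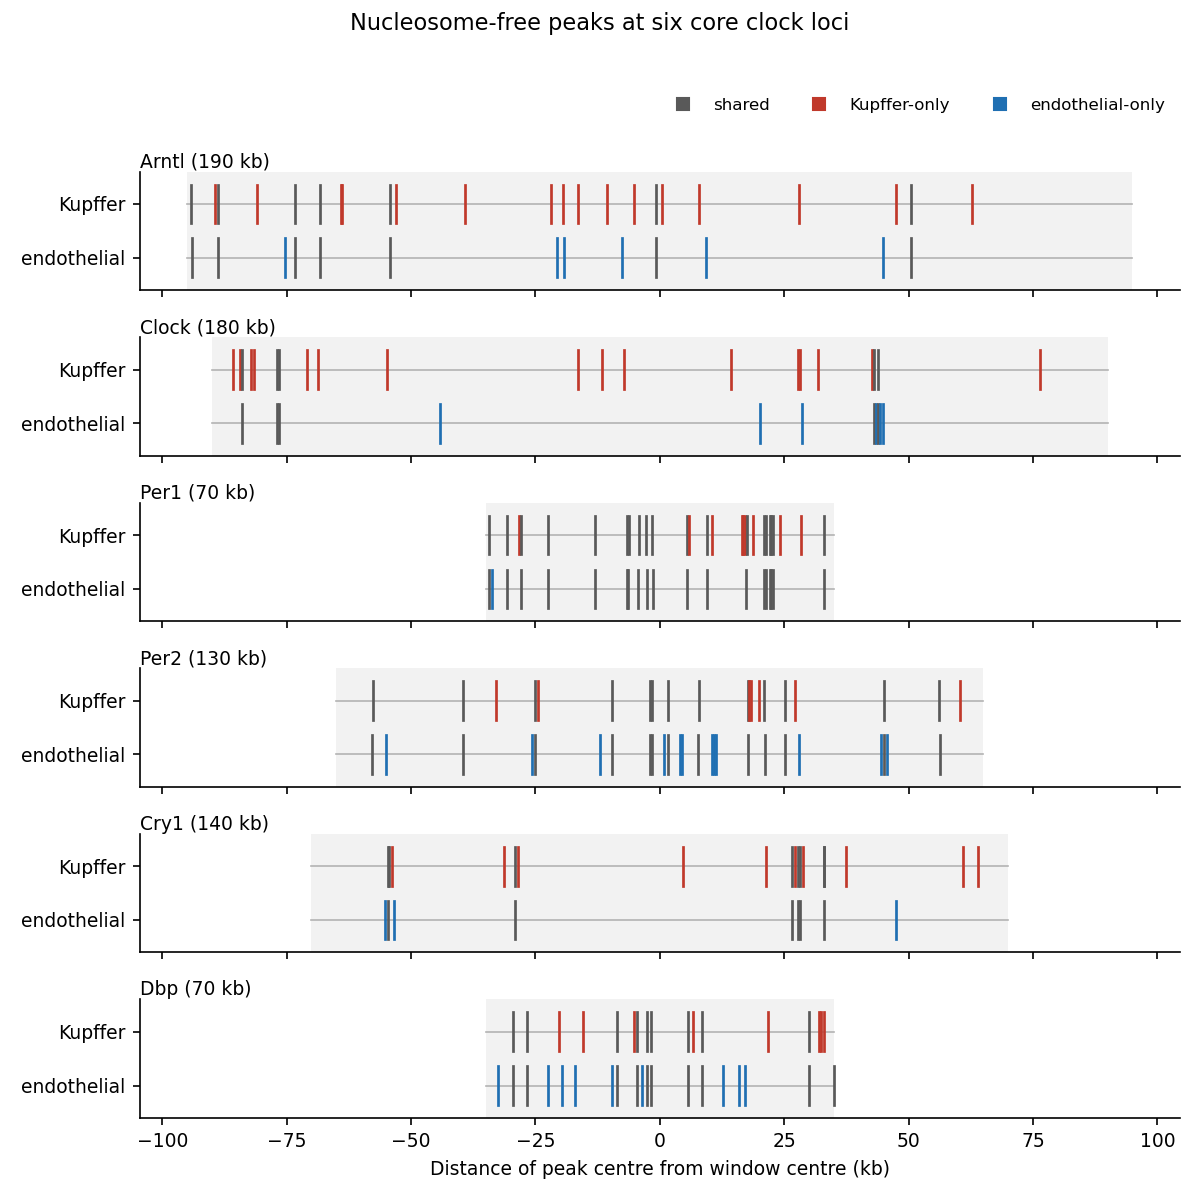
Positions of peak centres, in kb from the centre of each window, in the Kupffer list (upper line) and the endothelial list (lower line) at the 6 loci. Grey marks are shared peaks, red are Kupffer-only and blue endothelial-only; the shaded band is the window. Per1 has a single blue mark, and the long middle part of Clock has no grey mark.

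The ratio of Kupffer to endothelial peaks differed between the loci. Kupffer peaks outnumbered endothelial peaks at Cry1 (18 against 9), Clock (21 against 11), Arntl (23 against 13) and Per1 (28 against 20). Against 1.51 over the whole lists, the ratio was 2 at Cry1, 1.91 at Clock and 1.77 at Arntl. At Per1 it was 1.40, below that of the whole lists. At Per2 and Dbp the endothelial list, although the shorter of the pair genome-wide, held more: 20 Kupffer peaks stood against 25 endothelial peaks at Per2, a ratio of 0.80, and 17 against 19 at Dbp, a ratio of 0.89. At Per2 the ratio lay between 0.52 and 0.93 in the 9 alternative settings, and thus below 1 in each. At Dbp it was 1.08 without peaks of 151 bp (the most common width in both lists), 1.11 in the wider part of each list and 1 with wider windows, so its direction depends on the peaks and window used.

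**Figure D2:**
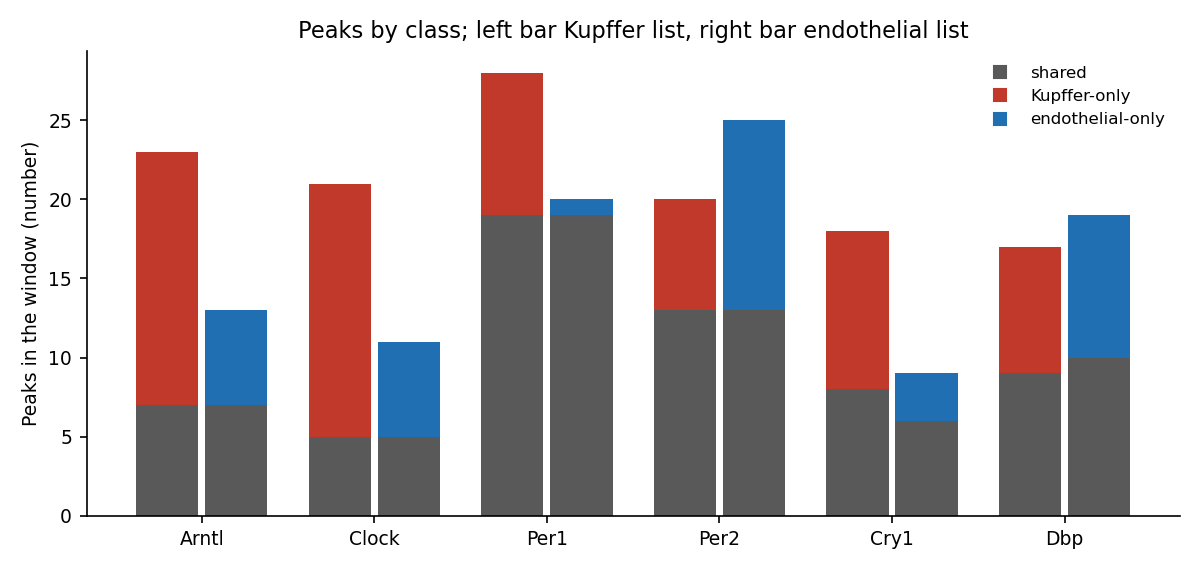
Number of peaks in each window, for the Kupffer list (left bar) and the endothelial list (right bar), split into shared and restricted peaks. Arntl and Clock each have 16 Kupffer-only peaks, Per1 has 19 shared peaks in either list, and Per2 has 12 endothelial-only peaks, more than its 7 Kupffer-only peaks.

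Peaks were denser inside each window than in the flanks of the same length on either side, in both lists. Per1 had 40 Kupffer and 28.6 endothelial peaks per 100 kb, against 25.7 and 10.7 in its flanks. Dbp had 24.3 Kupffer and 27.1 endothelial peaks per 100 kb, against 11.4 and 13.6 in its flanks. Per2 followed with 15.4 and 19.2, against 10.8 and 7.31. The 2 shortest windows, Per1 and Dbp, were thus the densest in either list. Cry1 had 12.9 Kupffer and 6.43 endothelial peaks per 100 kb (5.71 and 4.64 in its flanks), Arntl 12.1 and 6.84 (4.47 and 4.21), and Clock 11.7 and 6.11 (7.50 and 3.06). Windows of 100 kb on chromosomes 1 to 19 and X that held any peak numbered 17704. Their mean was 7.77 Kupffer and 5.16 endothelial peaks, their median 5 and 3, and their upper quartile 12 and 8. The 6 windows were drawn around genes and those windows were not, so the values are set side by side without a test.

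**Figure D3:**
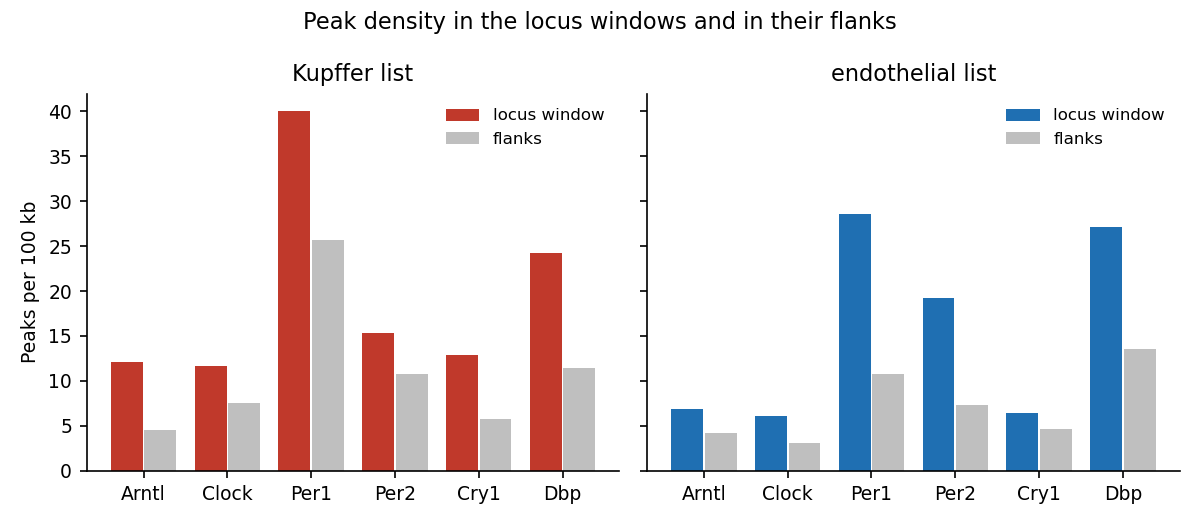
Peaks per 100 kb in each locus window (coloured) and in its 2 flanks of the same length combined (grey), for Kupffer cells (left panel) and endothelial cells (right panel). The coloured bar is the taller of each pair, with Per1 highest at 40 Kupffer and 28.6 endothelial peaks per 100 kb.

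The loci of the activators held the lowest shares of shared Kupffer peaks. Arntl and Clock together had 12 of 44 Kupffer peaks shared, 27.3% (15.0% to 42.8%), and 12 of 24 endothelial peaks, 50% (29.1% to 70.9%). The 3 repressor loci had 40 of 66 Kupffer peaks shared, 60.6% (47.8% to 72.4%), and 38 of 54 endothelial peaks, 70.4% (56.4% to 82.0%). The whole-list shares were 39.1% and 58.3%, and of these intervals only that of Kupffer peaks at the repressor loci leaves its whole-list share out. The repressor values leaned on Per1: without it 21 of 38 Kupffer peaks (55.3%, 38.3% to 71.4%) and 19 of 34 endothelial peaks (55.9%, 37.9% to 72.8%) were shared. Without Per2, 86.2% of the endothelial peaks at the repressor loci were shared. Single repressor loci were not all above the activators, as the endothelial share at Per2 (52%) was below that at Arntl (53.8%). The pooled values describe 2 and 3 loci, whose peaks are not replicates of a role, and the difference between roles was not tested. Role and window length cannot be told apart here, since both activator windows were longer than any of the others.

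**Figure D4:**
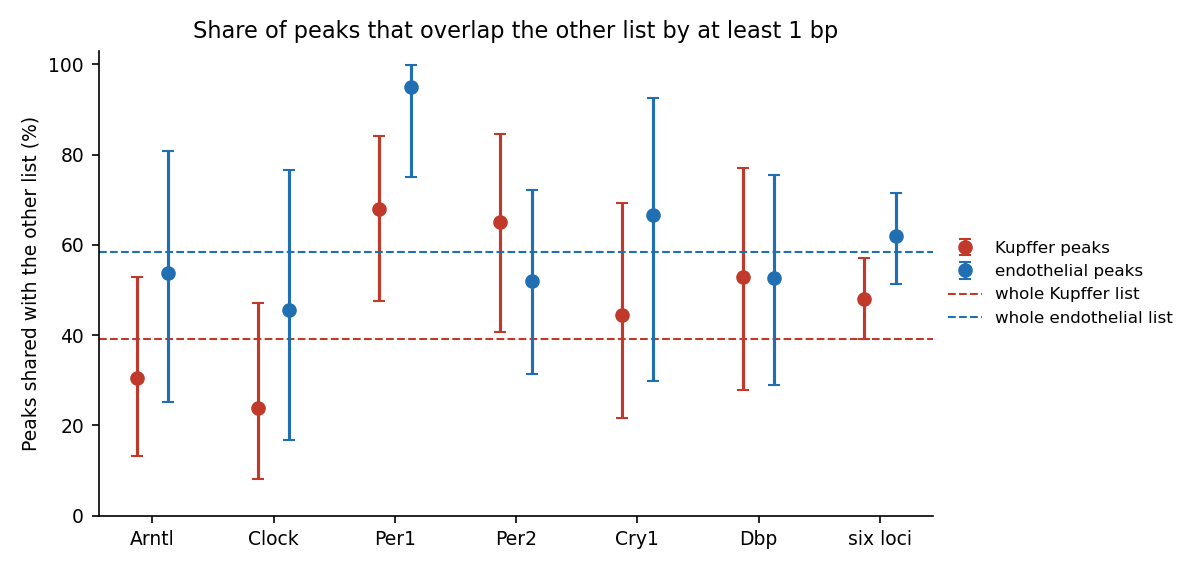
Percentage of peaks shared with the other list at each locus and over the 6 loci, with exact 95% binomial intervals as error bars; red points are Kupffer peaks, blue points endothelial peaks, and dashed lines give the whole lists (39.1% and 58.3%). Per1 is highest in both lists (67.9% and 95%), and Clock lowest (23.8% and 45.5%).

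At Arntl, whose product is the partner of CLOCK and the target of REV-ERB repression, 7 of 23 Kupffer peaks (30.4%, interval 13.2% to 52.9%) and 7 of 13 endothelial peaks (53.8%, 25.1% to 80.8%) were shared. Both intervals contain the whole-list shares of 39.1% and 58.3%. In its flanks 9 of 17 Kupffer peaks (52.9%) and 9 of 16 endothelial peaks (56.25%) were shared. The first of the 7 shared sites was chr7:120310762-120310981 in Kupffer cells with chr7:120310838-120310988 in endothelial cells, and the last chr7:120455491-120455641 with chr7:120455489-120455639, both 151 bp wide and 2 bp apart by their centres. The widest shared Kupffer peak, chr7:120350742-120350988 (247 bp), lay 9 bp from its partner chr7:120350743-120351005 (263 bp). After this pair came 53.1 kb, chr7:120351006-120404143, with 7 Kupffer-only and 3 endothelial-only peaks and no shared site. Within it 5 restricted peaks in a row alternated between the lists. They were Kupffer-only chr7:120383028-120383244, endothelial-only chr7:120384117-120384399, Kupffer-only chr7:120385422-120385635, endothelial-only chr7:120385742-120385892 and Kupffer-only chr7:120388407-120388557. The closest neighbours among them, chr7:120385422-120385635 and chr7:120385742-120385892, were separated by 106 bp. The widest Kupffer peak of the locus, chr7:120399547-120399893, was Kupffer-only and 347 bp wide, a width reached by 1.58% of all Kupffer-only peaks. The widest endothelial peak was shared, chr7:120316086-120316452 at 367 bp, and overlapped a Kupffer peak of 216 bp. The shared sites were unevenly placed, 5 of the 7 lying in the first stretch of the window, chr7:120310762-120351005. With 25% of the window's length left out on each side, 10% of Kupffer and 16.7% of endothelial peaks were shared.

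Clock, which encodes the histone acetyltransferase that pairs with BMAL1, had the lowest shares of the 6 loci, with 5 of 21 Kupffer peaks shared (23.8%, interval 8.22% to 47.2%) and 5 of 11 endothelial peaks (45.5%, 16.7% to 76.6%). In the flanks of Clock, 4 of 27 Kupffer peaks (14.8%, 4.19% to 33.7%) and 4 of 11 endothelial peaks (36.4%, 10.9% to 69.2%) were shared. The whole lists had 39.1% and 58.3%. All 5 shared sites of the window lay in 2 separate stretches. The first held 3 shared sites, among them the widest Kupffer peak of any of the 6 loci, chr5:76613370-76613729 (360 bp), with its partner chr5:76613343-76613723 (381 bp), which was the widest shared endothelial peak of the 6 loci. The other stretch, chr5:76732636-76734912, held 6 sites in 2.28 kb, the most in any 5 kb of this locus, with 2 shared, 1 Kupffer-only and 3 endothelial-only. From the last shared site of the first stretch to the first shared site of the other, chr5:76613730-76732831, no site was shared over 119 kb. This interval held 11 Kupffer-only peaks, of which chr5:76732636-76732786 also opens the stretch of 6 sites, and 3 endothelial-only peaks. Over the whole lists 30.1% of sites were in both. No genome-wide count of stretches without a shared site is given here, for this one or for that at Arntl. A run of 4 Kupffer-only peaks, chr5:76673523-76704405, fell in an endothelial gap of 64.0 kb, the longest between neighbouring endothelial peaks at any of the 6 loci. Endothelial peaks were the wider of the pair at 4 of the 5 shared sites, with medians of 212 bp in Kupffer cells and 304 bp in endothelial cells.

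Per1, a repressor gene that also responds quickly to glucocorticoid and cyclic AMP signals, was the locus most alike in the 2 lists. Of its Kupffer peaks 19 of 28 were shared (67.9%, interval 47.6% to 84.1%), and of its endothelial peaks 19 of 20 (95%, 75.1% to 99.9%). The whole-list shares were 39.1% and 58.3%. The lone endothelial-only peak, chr11:68881244-68881424, lay 503 bp from the nearest Kupffer peak. Over the 9 alternatives the endothelial share ran from 80% to 100%, the lowest with the Kupffer list cut to its widest peaks. In the flanks of Per1, 13 of 36 Kupffer peaks (36.1%, 20.8% to 53.8%) and 13 of 15 endothelial peaks (86.7%, 59.5% to 98.3%) were shared, and both intervals overlapped those of the window. The 9 Kupffer-only peaks were narrow, with a median of 151 bp against 208 bp for the 19 shared Kupffer peaks. The fullest 5 kb by site centres, chr11:68931335-68936486, had 7 sites, 3 shared and 4 Kupffer-only. Just beyond it, 3 shared sites, chr11:68937070-68937220, chr11:68937272-68937476 and chr11:68937632-68937877 in Kupffer cells, followed each other with endothelial partners 8, 43.5 and 9.5 bp away by their centres. Shared pairs at Per1 had a median centre distance of 22 bp and at most 53 bp.

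Per2, the second Period gene of the loop, had 48% of its endothelial peaks endothelial-only, against 41.7% of the whole endothelial list. Over the whole lists 39.1% of Kupffer and 58.3% of endothelial peaks were shared. Of the Kupffer peaks at Per2, 13 of 20 were shared (65%, interval 40.8% to 84.6%), and of its endothelial peaks 13 of 25 (52%, 31.3% to 72.2%). In the flanks of Per2, 11 of 28 Kupffer peaks (39.3%) and 11 of 19 endothelial peaks (57.9%) were shared. The Per2 window had 7 Kupffer-only and 12 endothelial-only peaks, 0.58 Kupffer-only per endothelial-only peak, against 2.20 over the whole lists. At Dbp the ratio was 0.89, and it was above 1 at the other loci. At Dbp its direction turned without peaks of 151 bp (7 Kupffer-only against 6 endothelial-only) and in the wider part of each list (6 against 5), and the counts were equal with wider windows (10 each). Of the 12 endothelial-only peaks at Per2, 8 had the most common width of 151 bp, and without peaks of that width in either list 6 endothelial-only peaks were counted. Where peaks were removed by width, the counts here include shared peaks that lost their partner in the other list. Endothelial-only peaks followed each other at chr1:93345332-93345532, chr1:93345752-93346049 and chr1:93346159-93346309, a run of 3 in 0.978 kb. The widest peak of all 224 was endothelial-only: chr1:93379060-93379722, 663 bp. Only 2 of the 38129 endothelial-only peaks of the genome were at least that wide, itself included, and 31 of all 91453 endothelial peaks. The nearest Kupffer peak, chr1:93380016-93380212, began 293 bp beyond its end and was shared. How the list was assembled from libraries is not stated, and its part in this width was not tested. The most crowded 5 kb for sites of either list, chr1:93352518-93356186, had the opposite make-up, with 2 shared and 3 Kupffer-only sites and no endothelial-only one.

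**Figure D5:**
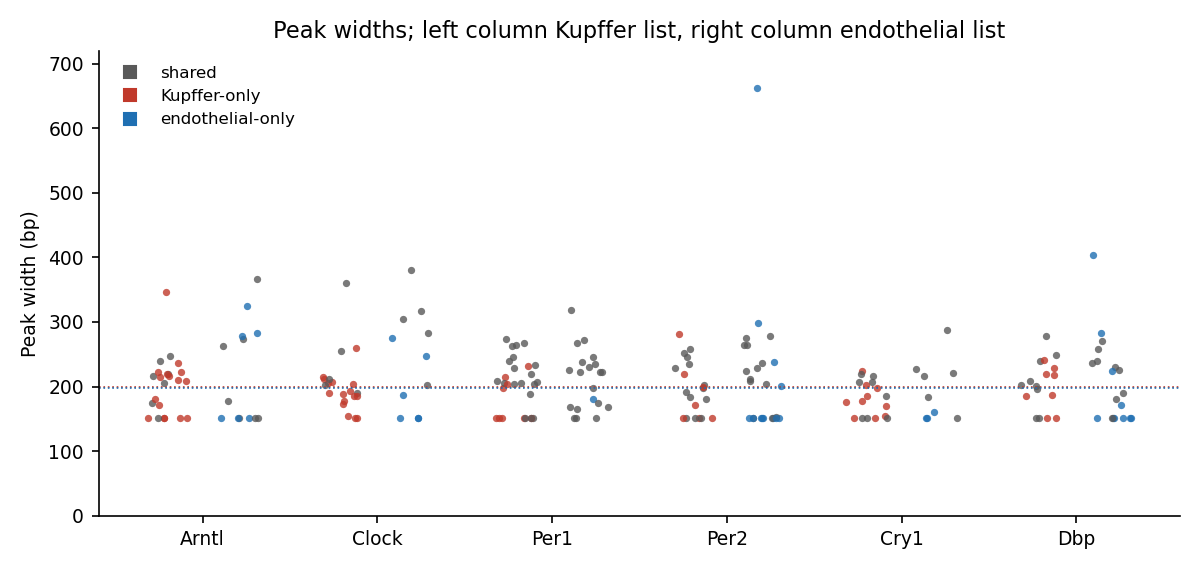
Width in bp of each of the 224 peaks by locus, with Kupffer peaks in the left column and endothelial peaks in the right; grey points are shared, red Kupffer-only and blue endothelial-only, and dotted lines mark the medians of the whole lists (199 and 198 bp). The row of points at 151 bp is the most common width, and the endothelial-only point at 663 bp is at Per2.

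Cry1, which encodes a potent repressor of the loop, had 8 of 18 Kupffer peaks shared (44.4%, interval 21.5% to 69.2%) and 6 of 9 endothelial peaks (66.7%, 29.9% to 92.5%). Both intervals contain the whole-list shares of 39.1% and 58.3%. In the flanks of Cry1, 3 of 16 Kupffer peaks (18.75%) and 3 of 13 endothelial peaks (23.1%) were shared. The counts of shared peaks differ because 2 endothelial peaks each overlapped a pair of Kupffer peaks. The endothelial peak chr10:84565275-84565561 covered 179 bp of chr10:84565268-84565453 and 75 bp of chr10:84565487-84565693, and chr10:84652899-84653049 overlapped chr10:84652856-84653006 and chr10:84653009-84653159. A stricter rule, 50% of each peak covered by the other, removed the second partner in either case. The fullest stretch, chr10:84646494-84648854, held 5 sites in 2.36 kb, 3 shared and 2 Kupffer-only. At lower coordinates, chr10:84591017-84646493, no endothelial peak was called over 55.5 kb, in which 3 Kupffer-only peaks lay. Cry1 peaks had median widths of 182 bp in Kupffer and 184 bp in endothelial cells, against 199 and 198 bp in the whole lists. None was over 287 bp. The endothelial median at Arntl was narrower still, at 178 bp.

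Dbp, a clock output gene encoding a transcription factor that binds D-boxes, was balanced between the lists. Of its Kupffer peaks 9 of 17 were shared (52.9%, interval 27.8% to 77.0%), and of its endothelial peaks 10 of 19 (52.6%, 28.9% to 75.6%). Both intervals contain the whole-list shares of 39.1% and 58.3%. In the flanks of Dbp, 9 of 16 Kupffer peaks (56.25%) and 8 of 19 endothelial peaks (42.1%) were shared. Its longest runs of restricted peaks were 3 Kupffer-only peaks in chr7:52996811-52998138 and 3 endothelial-only peaks in chr7:52977729-52982294, each with no other peak between them. Between neighbouring shared sites, chr7:52938463-52956272 held 2 Kupffer-only and 4 endothelial-only peaks. One of those 4 was chr7:52947698-52948100, 403 bp wide, a width that 1.00% of all endothelial-only peaks reached. The fullest stretches, counted by centres, had 5 sites within 5 kb. The one at chr7:52959724-52963348 held 3 shared, 1 Kupffer-only and 1 endothelial-only site, and that at chr7:52994835-53000019 held 2 shared and 3 Kupffer-only sites.

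At shared sites the peak centres of the 2 lists were mostly close. The 62 overlapping pairs at the loci had a median centre distance of 26 bp (quartiles 10.5 and 41.5 bp), against 25 bp over 54534 pairs of the whole lists (11 and 50.5 bp). The distance was at most 25 bp in 31 pairs (50.0%, against 50.2% of the whole-list pairs). By locus the median ran from 16 bp at Per2 to 50.8 bp at Cry1, whose doubly overlapped peaks are counted in each of their pairs. The Kupffer peak was the wider member in 22 pairs (35.5%) and the endothelial peak in 34 (54.8%), against 41.8% and 43.4% over the whole lists. Per2 with 9 of 13 endothelial-wider pairs, Cry1 with 5 of 8 and Clock with 4 of 5 had the highest shares of endothelial-wider pairs, and at Per1 the Kupffer peak was wider in 9 pairs and the endothelial peak in 8.

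Most restricted peaks at the loci lay within 10 kb of a peak of the other cell type. Of the 66 Kupffer-only peaks, 27 (40.9%) lay within 1 kb of an endothelial peak and 55 (83.3%) within 10 kb, against 22.5% and 68.2% of Kupffer-only peaks in the whole list. Of the 37 endothelial-only peaks, 17 (45.9%) lay within 1 kb of a Kupffer peak and 36 (97.3%) within 10 kb, against 25.9% and 70.6%. The windows also held 16.3 Kupffer and 12.4 endothelial peaks per 100 kb, and their flanks 8.97 and 5.96. Windows of 100 kb in the genome that held any peak had means of 7.77 and 5.16 and medians of 5 and 3. The part of this density in the distances was not tested. The farthest Kupffer-only peak from any endothelial peak, by 31.4 kb, was at Clock, as was the farthest endothelial-only peak, by 10.4 kb. The smallest distance, also at Clock, was 45 bp, between the Kupffer-only peak chr5:76732636-76732786 and the shared endothelial peak chr5:76732832-76733148. At Per1 and Per2 the median distance of Kupffer-only peaks to the other list was 782 and 744 bp, and at Clock it was 4207 bp.

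The median restricted peak was narrower than the median shared peak in both lists. Kupffer-only peaks at the loci had a median width of 186.5 bp (quartiles 151 and 214 bp) and shared Kupffer peaks one of 207 bp (186 and 239 bp). Endothelial-only peaks had a median of 151 bp (151 and 238 bp) whereas the median of the 60 shared endothelial peaks was 223.5 bp (172.75 and 263.25 bp). By locus there were exceptions: at Arntl endothelial-only peaks had a median of 214.5 bp, wider than the 178 bp of the shared ones, and at Dbp the Kupffer medians were 202.5 and 202 bp. In the whole lists the corresponding medians were 194 and 207 bp for Kupffer peaks and 171 and 210 bp for endothelial peaks. Since 1 bp of overlap made a peak shared, width itself enters the class, and its part in these differences was not tested. Peaks of exactly 151 bp were 19 of the 66 Kupffer-only peaks (28.8%) and 21 of the 37 endothelial-only peaks (56.8%), against 27.4% and 44.6% in the whole lists. Peaks over 300 bp numbered 2 in Kupffer cells (1.57%) and 8 in endothelial cells (8.25%), against 5.15% and 8.12% of the whole lists.

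A few peaks lay close to a window's edge, where the choice of window decides membership. At the end of the Dbp window the endothelial peak chr7:52999869-53000019 lay inside by 56.5 bp, and its Kupffer partner chr7:52999914-53000128 lay outside by 20.5 bp, which is why Dbp has 9 shared Kupffer but 10 shared endothelial peaks. At the start of the Per1 window the Kupffer-only peak chr11:68879759-68879909 lay outside by 166.5 bp, and the first shared Kupffer peak inside by 645.5 bp. The first Arntl peaks lay inside by 871 bp in Kupffer cells and 912.5 bp in endothelial cells. The first endothelial peak of the Per1 window lay inside by 672.5 bp. At the remaining edges the nearest peaks inside and outside were over 1 kb away. With windows 25 kb wider on each side, 159 Kupffer and 115 endothelial peaks were counted, 48.4% and 65.2% of them shared.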

How the data were processed

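ATAC-seq was done on 32 libraries, for which the authors deposited 1 peak list per cell type with 3 columns (chromosome, start, end) and no score or library of origin. Per the submitters' processing notes, Bowtie, HOMER and the build mm9 were used, with no versions named. How peaks were thresholded, whether reads were shifted for the transposase, how short fragments were chosen and how libraries were merged is not stated there. Depth is thus unknown. No peaks overlapped within a list, and the lists had no further columns.

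Peaks were taken by centre and classed by overlap (at least 1 bp) in Python 3.11.15 with NumPy 2.4.6. Class counts equalled those from bedtools 2.31.1, and the classing by overlap, but no other step, was tested on simulated data. Peak coordinates are on mm9, counted from 1, and promoters are RefSeq's on GRCm38.p6. Shares have exact Clopper-Pearson intervals (95%, SciPy 1.17.1). No p-value was computed, since a cell type has 1 list and its peaks are not replicates. By rule, the text names the widest peaks, the longest runs of restricted peaks and the peaks nearest each window edge. The fullest 5 kb, the longest stretches without a shared site, the largest gaps and the other single peaks were chosen after their values were seen. Alternatives changed the overlap, the peaks used, the windows and the loci. Loci, lists and motifs were chosen with earlier results of these data known.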

Additional observations from a re-analysis of the deposited data

How the results depend on the processing

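Of 75 alternative values over the 6 loci together, 67 kept to the interval of their share or, for counts and ratios, to a factor of 1.5, and 8 moved further. Counting peaks up to 500 bp apart as shared gave 60.6% of Kupffer and 72.2% of endothelial peaks. Shares of the whole lists were not computed under the alternative settings. With the Kupffer list cut to its widest peaks (175 bp or more, which left 91515, about the endothelial number), 50.5% of endothelial peaks were shared and 41 Kupffer-only peaks were left; the ratio of Kupffer to endothelial peaks was then 0.93. The wider part of each list (at or above its median) held 37 Kupffer-only and 22 endothelial-only peaks, the lists without 151 bp peaks 22 endothelial-only peaks, and windows narrowed by 25% of their length on each side 36 Kupffer-only peaks. These settings remove peaks by construction. Where peaks were removed by width, a shared peak that lost its partner was also counted as restricted. Leaving out 1 locus at a time gave 42.4% to 52.8% of Kupffer and 53.2% to 65.3% of endothelial peaks shared, the lowest without Per1. Leaving out each repressor locus, an alternative chosen after seeing the data, gave 55.3% to 66.7% of Kupffer and 55.9% to 86.2% of endothelial peaks at the repressor loci shared. Of 270 values for single loci, 233 stayed within the interval or the factor of 1.5 and 37 moved further. Intervals of single loci are wide: endothelial shares at Cry1 of 44.4% and 88.9% both stayed within 29.9% to 92.5%. A change of the overlap rule cannot alter a ratio of Kupffer to endothelial peaks, yet such values are counted as kept. These counts thus do not measure how stable the values are. Per1 had the highest endothelial share in each setting, and the highest Kupffer share except with close peaks joined or wider windows (Per2) and with narrowed windows (Dbp). The lowest Kupffer share was at Clock or Arntl in each setting, and the lowest endothelial share at Clock, Arntl, Dbp or Per2 depending on the setting. No paired analysis was possible because neither list separates its libraries. Leaving out a replicate, another normalization and a stricter peak threshold were not run, as the lists give no value to do so. With promoters limited to the 250 bases before the start, CACGTG was found in the same 2 of 9 member promoters and in 6.02% of all promoters, and AGGTCA in 2 of 9 in place of 3. On the gene's own strand alone CACGTT was found in 0 of 9 in place of 1, AGGTCA in 1 in place of 3 and CCAAT in 2 in place of 7. Read depth is unknown, and a peak missing from a list is not known to be closed chromatin in that cell type.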
